A study of Mus musculus with 12 samples.

Results

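Egr1, Egr2 and Egr3, their corepressors Nab1 and Nab2, and the nuclear receptors Nr4a1, Nr4a2 and Nr4a3 were followed through 4 stages of thymocyte development. All 8 genes were higher in both single-positive subsets than in CD4+CD8+ cells, with group differences between 0.76 and 3.11 on the log2 scale. The genes were taken by symbol: a probe set counted where the platform annotation gave it 1 of these symbols and no other, which yielded 19 of the 34945 probe sets with 1 symbol, for 8 of 18193 genes. Thymocytes of C57BL/6 mice had been sorted by flow cytometry into DN cells, which lacked CD4, CD8α and TCRβ, DP cells with both coreceptors, CD4SP cells with CD4 and high TCRβ but no CD8α, and CD8SP cells with CD8α and high TCRβ but no CD4. RNA was taken from untreated, uncultured cells right after isolation, and 3 Affymetrix arrays were hybridised per subset, 12 in all. The strain was the same in all 4 groups, no genotype or treatment differed between them, and ages and pooling of mice are not given in the sources used here. Each subset is a gate on 3 surface proteins: DN was not gated against cells of other lineages, DP was not gated on TCRβ, and regulatory or other specialised T cells were not removed from the single-positive gates.

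Egr proteins are zinc finger transcription factors encoded by immediate early genes, which T cell receptor signals switch on within minutes through the ERK pathway and the SRF and Elk factors. Nab1 and Nab2 bind Egr proteins and repress their targets, partly through the NuRD chromatin complex, and Nab genes are themselves Egr targets, so the pair forms a feedback loop. The Nr4a genes encode orphan nuclear receptors induced by calcium signals through MEF2 and CREB family factors. In the thymus the Egr factors are known for their part in positive selection, Nr4a1 (Nur77) and Nr4a3 (Nor1) for apoptosis in negative selection, and Nr4a1 levels are widely used as a readout of receptor signal strength.

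RefSeq promoter windows (GRCm38.p6) were at hand for 6 of the 8 genes, in 10 windows, and the 250 bases before each start site were searched on both strands. The sites below are shown because they hold the letters that Egr proteins (GCGGGGGCG or GCGTGGGCG) or SRF (the CArG box) bind, with the match in capitals and 10 bases on each side, written 5′ to 3′ along the gene. The first 3 lie before a start of Nab1 on the minus strand at chr1:52500571-52500599, chr1:52500539-52500567 and chr1:52500468-52500496, the next before Nr4a1 on the plus strand at chr15:101266776-101266804, and the last 2 before starts of Egr2 on the plus strand at chr10:67537484-67537513 and chr10:67537787-67537816. Sites whose match reads CGCCCACGC or CGCCCCCGC carry the motif on the opposite strand.
Nab1 EGR site at -141 to -133: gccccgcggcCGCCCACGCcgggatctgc
Nab1 EGR site at -109 to -101: actcggccgcGCGTGGGCGggagccggag
Nab1 EGR site at -38 to -30: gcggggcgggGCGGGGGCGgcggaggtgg
Nr4a1 EGR site at -60 to -52: gcgtcagtggCGCCCCCGCccctctccat
Egr2 CArG box at -72 to -63 of an earlier start: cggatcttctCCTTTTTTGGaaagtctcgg
Egr2 CArG box at -72 to -63 of a later start: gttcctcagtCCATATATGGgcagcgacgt
Positions count back from the base before the start site, which is -1. Among the 32851 promoter windows of the same length, 3.06% held an EGR site and 1.47% a CArG box.

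The Nr4a2 window is printed whole, since it lies before every annotated start of that gene and holds the MEF2 site by name (TTATTTATAG at -167 to -158) among 4 copies of TGACG, the core of the cyclic AMP response element bound by CREB, with matches in capitals (chr2:57124004-57124253, minus strand, 250 bases).
Nr4a2: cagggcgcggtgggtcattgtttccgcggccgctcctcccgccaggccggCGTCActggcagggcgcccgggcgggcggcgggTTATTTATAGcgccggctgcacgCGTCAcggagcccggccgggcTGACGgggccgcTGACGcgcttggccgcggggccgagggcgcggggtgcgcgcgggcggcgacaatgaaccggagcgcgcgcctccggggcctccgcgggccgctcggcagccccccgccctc
A MEF2 site occurred in 2.92% of all windows and TGACG on either strand in 17.8%. TGACG also occurred 4 times each before Nr4a1 and Nr4a3, 1 time before Nab1, and 2 times before the later Egr2 start. The complete element TGACGTCA contains TGACG on both strands and was present in 1.55% of windows, and the Nr4a monomer site AAAGGTCA (NBRE) in 1.34%. Neither of these 2 motifs was found in the members' windows, and the Nab2 window held none of the 6 motifs. A match is a run of letters in the reference sequence, and nothing about binding was measured here.

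The deposited values are log values, read here as log2, set relative to the DP mean, so that DP is 0 for each probe set and absolute levels are lost. The value of a gene is the mean of its probe sets. Stage markers went with the labels: Cd4, Cd8a, Cd8b1, Rag1 and Rag2 were called higher in DP than DN, Zbtb7b was 3.01 ± 0.21 (log2 difference ± SE) higher in CD4SP than CD8SP, Nkg7 was lower there (-6.08 ± 0.39), and all 4 measured markers of mature single-positive cells were higher in both single-positive subsets than in DP. CD8SP replicate 1 and DN replicate 1 had the lowest array weights (0.28 and 0.53, against 0.69 to 1.81 on the other 10 arrays), and results that rest on them are given with and without them. Whether each array stands for a different mouse is not stated in the labels, so p-values speak only of the spread among these 3 arrays per group, which may be technical. In sorted bulk samples, more cells of a kind that expresses a gene and more RNA per cell cannot be told apart.

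Egr1, the best known of the immediate early zinc finger factors, was the member with the clearest stepwise order, from DN through DP to the single-positive subsets. Its values were -1.56, -1.10 and -0.98 on the DN arrays, -0.40, 0.27 and 0.12 in DP, 2.03, 1.63 and 1.74 in CD4SP, and 1.29, 1.12 and 1.25 in CD8SP. The DN arrays lay below all DP arrays, which lay below all CD8SP arrays, which lay below all CD4SP arrays. Egr1 was higher in DP than DN by 1.21 ± 0.19 (2.32-fold, limma, adjusted p = 0.000541), higher in CD4SP than DP by 1.80 ± 0.19 (3.48-fold, adjusted p = 3.39e-05) and higher in CD8SP than DP by 1.22 ± 0.19 (2.33-fold, adjusted p = 0.000477). The top neighbours in its order, CD4SP and CD8SP, differed by 0.58 ± 0.19 (95% interval 0.15 to 1.01). This difference was not called after adjustment over all genes (limma, adjusted p = 0.0786), although without DP replicate 1 it had an adjusted p of 0.0413.

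Egr2, which limits T cell activation in the periphery and acts with Egr1 in selection, had its highest values in CD4SP. It lay at -1.18, -0.40 and -0.29 in DN, -0.36, 0.32 and 0.05 in DP, 2.39, 2.33 and 2.43 in CD4SP, and 1.59, 1.55 and 1.89 in CD8SP. The DN and DP arrays overlapped, while every single-positive array lay above every DN and DP array. Egr2 was 2.38 ± 0.23 higher in CD4SP than DP (5.22-fold, adjusted p = 1.5e-05) and 1.68 ± 0.23 higher in CD8SP than DP (3.2-fold, adjusted p = 0.000173). The DP minus DN difference of 0.62 ± 0.23 missed the threshold (adjusted p = 0.0549) and passed it without DN replicate 3 (0.0307) or without DP replicate 1 (0.0258). Without DN replicate 1 it was 0.35 (adjusted p = 0.174). CD4SP minus CD8SP was 0.71 ± 0.23 (adjusted p = 0.0711), with an adjusted p of 0.0175 without DN replicate 1.

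Egr3, an Egr family target that acts at β-selection as well as in positive selection, had its highest mean in CD8SP, though CD4SP and CD8SP were not called different. Its values were -0.45, 0.48 and 0.40 in DN, -0.17, 0.16 and 0.01 in DP, 1.69, 1.59 and 1.68 in CD4SP, and 1.77, 1.76 and 1.92 in CD8SP. DN replicate 1 was the lowest of all 12 arrays and the other 2 DN arrays lay above all DP arrays. Egr3 was 1.65 ± 0.20 higher in CD4SP than DP (3.15-fold, adjusted p = 9.53e-05) and 1.82 ± 0.20 higher in CD8SP than DP (3.52-fold, adjusted p = 4.16e-05). CD4SP minus CD8SP was -0.16 ± 0.20 (interval -0.62 to 0.29, adjusted p = 0.674). DP minus DN was -0.14 ± 0.20 (adjusted p = 0.637), and -0.44 without DN replicate 1 (adjusted p = 0.0106), so the absence of a call there rests on that array.

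The corepressor genes differed in the size of their response, which was small for Nab1 and large for Nab2. Nab1 lay between -0.36 and -0.20 in DN, between -0.07 and 0.07 in DP, between 1.02 and 1.21 in CD4SP, and between 0.83 and 0.94 in CD8SP. The 4 ranges do not overlap. Nab1 was higher in CD4SP than DP by 1.09 ± 0.08 (2.12-fold, adjusted p = 3.12e-06), in CD8SP than DP by 0.89 ± 0.08 (1.85-fold, adjusted p = 1.26e-05), and in DP than DN by 0.30 ± 0.08 (1.23-fold, adjusted p = 0.0164). This last call was lost without DN replicate 1 (adjusted p = 0.052), DN replicate 2 (0.0601) or DP replicate 3 (0.0678). It rests on 1 of the 3 probe sets: fitted singly, 1438819_at gave 0.65 (adjusted p = 0.0111), 1448781_at 0.17 (0.206) and 1417624_at 0.09 (0.565). Nab1 in CD4SP minus CD8SP was 0.20 ± 0.08 (adjusted p = 0.163).

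Nab2, which responds to receptor signals with Egr1, lay at -0.52, -0.21 and -0.00 in DN, -0.33, 0.20 and 0.14 in DP, 3.31, 2.73 and 2.99 in CD4SP, and 2.42, 2.42 and 2.52 in CD8SP. DN and DP arrays overlapped, and the single-positive arrays lay far above both. Nab2 was 3.01 ± 0.18 higher in CD4SP than DP (8.06-fold, adjusted p = 5.53e-07) and 2.45 ± 0.18 higher in CD8SP than DP (5.47-fold, adjusted p = 2.2e-06). DP minus DN was 0.24 ± 0.18 (adjusted p = 0.342), and CD4SP minus CD8SP was 0.56 ± 0.18 (adjusted p = 0.0755).

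Nr4a1 stood out in CD4SP. Its values were 0.09, 0.77 and 1.04 in DN, -0.60, 0.39 and 0.22 in DP, 3.40, 2.96 and 2.97 in CD4SP, and 1.67, 1.68 and 1.85 in CD8SP. The CD4SP arrays lay above all CD8SP arrays by more than the range within either group, and the DN and DP arrays overlapped. Nr4a1 was 3.11 ± 0.28 higher in CD4SP than DP (8.64-fold, adjusted p = 8.99e-06), 1.73 ± 0.28 higher in CD8SP than DP (3.33-fold, adjusted p = 0.000544) and 1.38 ± 0.28 higher in CD4SP than CD8SP (2.6-fold, adjusted p = 0.00912). DP minus DN was -0.63 ± 0.28 (adjusted p = 0.104), and became -0.90 when DN replicate 1 was left out (adjusted p = 0.0235). Leaving out DP replicate 1 gave -0.33 (adjusted p = 0.354).

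Nr4a2 (Nurr1) had the opposite order from Nr4a1 between the single-positive subsets, and DP was its lowest stage. Its values were 0.75, 1.01 and 1.004 in DN, -0.12, 0.07 and 0.05 in DP, 0.85, 0.71 and 0.72 in CD4SP, and 1.25, 1.11 and 1.04 in CD8SP. All DP arrays lay below the arrays of the other 3 groups, and the DN and CD4SP arrays overlapped. Nr4a2 was lower in DP than DN by 0.92 ± 0.10 (log2 difference -0.92, 1.89-fold, adjusted p = 3.81e-05), 0.76 ± 0.10 higher in CD4SP than DP (1.69-fold, adjusted p = 0.000154) and 1.13 ± 0.10 higher in CD8SP than DP (2.19-fold, adjusted p = 7.45e-06). CD4SP minus CD8SP was -0.37 ± 0.10 (adjusted p = 0.0348), but adjusted p-values between 0.0503 and 0.111 followed when any of CD4SP replicates 2 and 3, CD8SP replicates 1 and 2 or DP replicates 2 and 3 was left out. CD8SP minus DN was 0.21 ± 0.10 (adjusted p = 0.12) and CD4SP minus DN was -0.16 ± 0.10 (adjusted p = 0.224), so neither was called. The second passed the threshold without both low-weight arrays (-0.25, adjusted p = 0.047) and without the probe sets whose names end in _s_at or _x_at (-0.31, adjusted p = 0.0494).

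Nr4a3 had its lowest values in DP, as Nr4a2 did, and its highest in CD4SP, as Nr4a1 did. It lay at 0.37, 0.67 and 0.65 in DN, -0.04, 0.12 and -0.07 in DP, 1.63, 1.46 and 1.70 in CD4SP, and 1.44, 1.07 and 1.09 in CD8SP. No array of one group lay within the range of another. Nr4a3 was lower in DP than DN (log2 difference -0.56 ± 0.13, adjusted p = 0.00474), 1.60 ± 0.13 higher in CD4SP than DP (3.03-fold, adjusted p = 3.37e-06) and 1.20 ± 0.13 higher in CD8SP than DP (2.3-fold, adjusted p = 2.48e-05). The DP minus DN call rests on 1 of the 3 probe sets. Fitted singly, 1438796_at gave -1.48 (adjusted p = 0.000359), 1421079_at -0.24 (0.306) and 1421080_at 0.03 (0.918). CD4SP minus CD8SP was 0.40 ± 0.13 (adjusted p = 0.0645), and 0.52 without CD8SP replicate 1 (adjusted p = 0.0161).

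**Figure D1:**
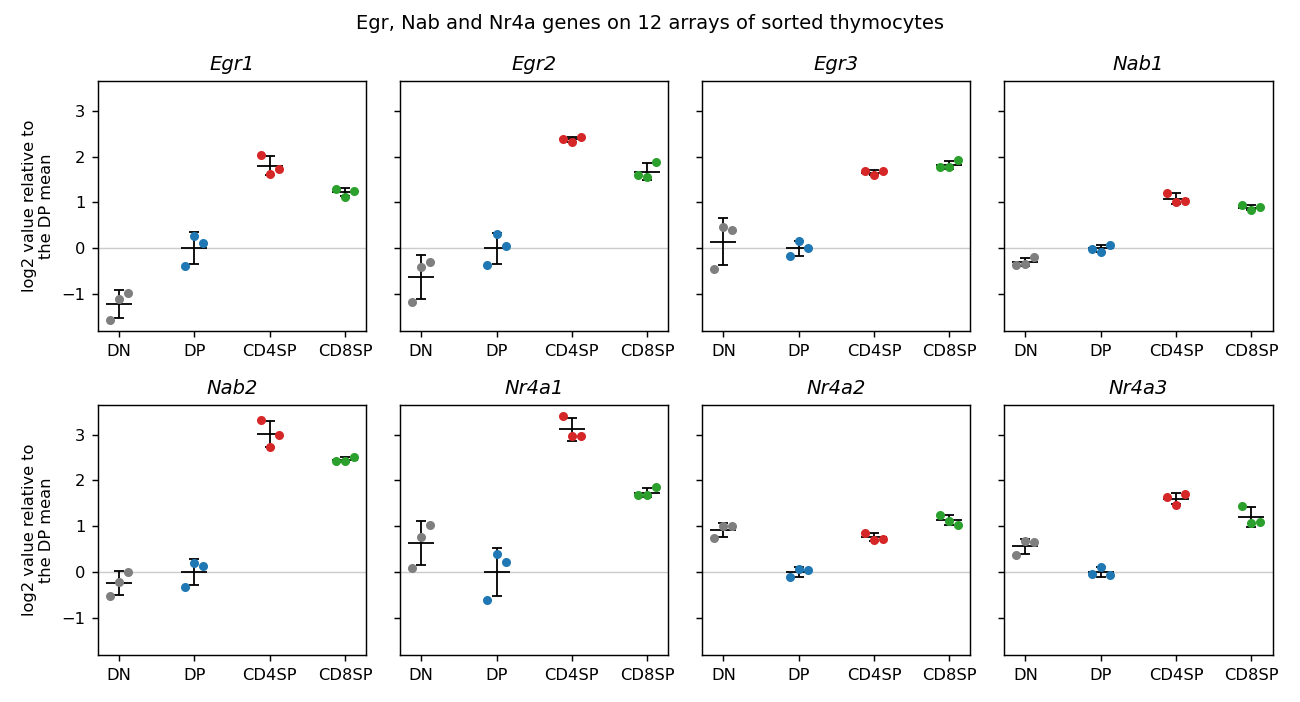
Each panel plots 1 gene, with the log2 value relative to the DP mean on the vertical axis and the 4 subsets on the horizontal axis. Points are the 3 arrays of a subset and black bars give their mean ± SD. All 8 genes lie higher in CD4SP and CD8SP than in DP, Nr4a1 lies higher in CD4SP (3.11) than in CD8SP (1.73), and Nr4a2 and Nr4a3 lie lower in DP than in DN.

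Counted together, all 8 genes were higher in CD4SP than DP, where 16.4% of all 18193 genes were called higher and 16.2% lower, and all 8 were higher in CD8SP than DP, where 18.2% of genes were called higher and 20.9% lower. The median log2 difference of the 8 genes was 1.73 in CD4SP minus DP, against 0.04 over all genes, and 1.45 in CD8SP minus DP, against 0.00 over all genes. Both counts stayed at 8 when each of the 12 arrays was left out in turn and when the pair of low-weight arrays was left out. The 2 comparisons share the 3 DP arrays. In DP minus DN, Egr1 and Nab1 were higher, Nr4a2 and Nr4a3 were lower and 4 genes were not called, with 17.8% of all genes called higher and 18.8% lower, shares not far from 2 of 8. Without DN replicate 1 and CD8SP replicate 1 together, 6 of the 8 were called in DP minus DN. The share of all genes called in that fit was not counted, so this 6 cannot be set against it.

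Some markers of regulatory T cells and of NK and innate lymphoid cells were also higher in the single-positive subsets than in DP. Of 5 regulatory T cell markers, 4 were higher in CD4SP than DP and 3 in CD8SP than DP, and their mean lay between 1.85 and 2.01 in CD4SP, 0.91 and 1.04 in CD8SP, and -0.07 and 0.07 in DP. Of 6 NK and innate lymphoid markers, 2 were higher in each and 4 were not called. The 2 were Klrd1 (1.44) and Fcer1g (0.53) in CD4SP minus DP, and Klrd1 (5.90) and Eomes (4.73) in CD8SP minus DP. The mean of the 6 lay between 0.47 and 0.79 in CD4SP, 1.72 and 2.05 in CD8SP, and -0.05 and 0.03 in DP. Both single-positive gates required high TCRβ, and which cells carried these markers was not tested. The part of any such cells in the members' values was not tested either.

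Set against DN, 7 of the 8 genes were higher in CD4SP (22.6% of all genes were called higher and 21% lower) and 7 were higher in CD8SP (18.7% higher and 22.3% lower). Nr4a2, whose probe sets 1433423_at and 1447863_s_at were called in opposite directions, was the gene not called in either. The largest gene differences from DN were in the Egr and Nab group: Nab2 was 3.25 ± 0.18 higher in CD4SP than DN, Egr1 3.01 ± 0.19 and Egr2 3.01 ± 0.23. Nr4a1 was 2.48 ± 0.28 higher in CD4SP than DN and 1.10 ± 0.28 higher in CD8SP than DN (adjusted p = 0.00909), and the CD8SP call was lost without both low-weight arrays (0.86, adjusted p = 0.0583). Nr4a3 was 1.03 ± 0.13 higher in CD4SP than DN and 0.64 ± 0.13 higher in CD8SP than DN, the second being 0.42, and still called, without both low-weight arrays.

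**Figure D2:**
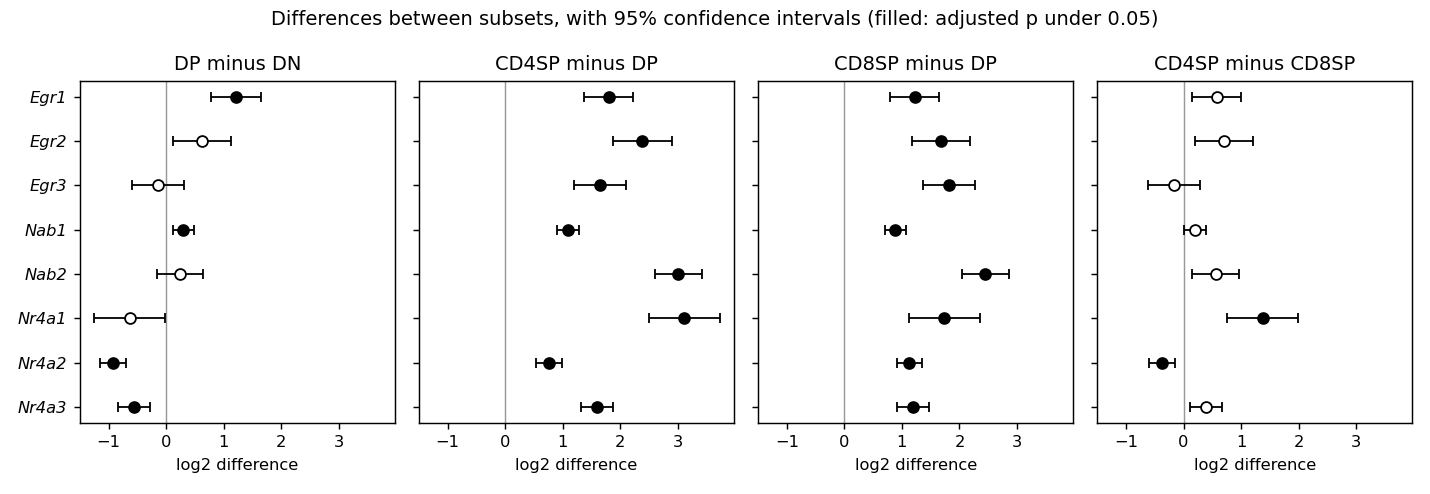
Log2 differences of the 8 genes (horizontal axis) in 4 comparisons, 1 per panel, with 95% confidence intervals (limma); filled points have an adjusted p under 0.05. In CD4SP minus DP and CD8SP minus DP all 8 points are filled and to the right of 0, while in CD4SP minus CD8SP Nr4a1 (1.38) is filled on the right and Nr4a2 (-0.37) on the left.

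Between the single-positive subsets, which also tests whether the differences from DP are equal in them, Nr4a1 was higher in CD4SP and Nr4a2 was lower, 1 gene each way where 7.78% of all genes were called higher and 4.91% lower. Of the other 6 genes, 5 had differences between 0.20 and 0.71 and Egr3 had -0.16. Intervals of these 6 were wide, so that, for example, the Egr2 difference may lie anywhere between 0.20 and 1.21. The count of 2 was sensitive to single arrays, being 4 without DN replicate 1 (Egr2 and Nr4a3 joined) and 1 without CD4SP replicate 2, CD4SP replicate 3, CD8SP replicate 2, DP replicate 2 or DP replicate 3. The Nr4a1 call remained in each of these 12 fits, with adjusted p-values between 0.00384 and 0.0373.

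Regulatory T cells sit in the CD4SP gate, so their markers were read between the subsets. Of 5 markers, 4 (Il2ra, Ctla4, Tnfrsf18 and Gpr83) were higher in CD4SP than CD8SP, while the lineage factor gene Foxp3 was not called there (0.33 ± 0.16, adjusted p = 0.215) and was 0.49 ± 0.16 higher in CD4SP than DP (adjusted p = 0.0351). Their part in the Nr4a1 difference was not tested, and how far any of them is from 0 signal is unknown, since levels are lost.

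Not all probe sets of a gene gave the same picture. Affymetrix reads a gene through sets of short probes, mostly in the last exons, so probe sets of 1 gene can report different transcript ends. The single probe sets of Egr1, Nab2 and Nr4a1 leave nothing to compare. The 2 of Egr2 gave like differences in CD4SP minus DP (2.42 and 2.35), and the 3 of Nab1 gave 1.35, 0.92 and 0.99.

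For Egr3, Nr4a2 and Nr4a3, the gene mean combined probe sets with large differences and others near 0. Egr3 probe set 1436329_at read 2.99, 3.10 and 3.07 in CD4SP, and 3.06, 3.41 and 3.46 in CD8SP, while 1421486_at read 0.39, 0.08 and 0.30 in CD4SP, and 0.48, 0.12 and 0.38 in CD8SP. On the first of these, DN replicate 1 read -1.13, against 0.92 and 0.66 on the other DN arrays. The low Egr3 value of that array thus came from 1 of the 2 probe sets, since 1421486_at read 0.23 there.

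Nr4a2 had 6 probe sets, of which 1455034_at and 1450750_a_at carried most of the pattern. Probe set 1455034_at read 1.995, 2.76 and 2.999 in DN, 2.52, 1.92 and 2.29 in CD4SP, and 3.09, 3.004 and 3.19 in CD8SP. Probe set 1450750_a_at averaged 1.65 ± 0.11 in DN, 1.37 ± 0.19 in CD4SP and 1.95 ± 0.16 in CD8SP (SD, n = 3 each). Both have DP as the lowest stage and CD8SP above CD4SP. Fitted singly (limma), their CD4SP minus CD8SP differences were -0.85 (adjusted p = 0.0627) and -0.58 (adjusted p = 0.0692). None of the 6 sets was called in that comparison. The set 1433423_at was high in DN alone (1.08 ± 0.26, against -0.02 ± 0.11 in CD4SP and 0.37 ± 0.35 in CD8SP), and 1433422_at stayed between -0.20 and 0.22 on all arrays. Fitted singly against DN (limma), 1433423_at was lower in CD4SP (-1.105, adjusted p = 0.00095) and CD8SP (-0.71, adjusted p = 0.0144). By contrast, 1447863_s_at was higher in CD4SP (0.60, adjusted p = 0.0142) and CD8SP (0.885, adjusted p = 0.00172).

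Nr4a3 showed the widest gap. Probe set 1438796_at read 0.92, 1.66 and 1.86 in DN, 3.95, 3.48 and 3.84 in CD4SP, and 3.06, 2.76 and 3.03 in CD8SP. On this set CD4SP lay above CD8SP on each array, and fitted singly with adjustment over all 34945 probe sets the difference was 0.81 (adjusted p = 0.0361). Probe set 1421079_at averaged 0.77 in CD4SP and 0.73 in CD8SP, and 1421080_at averaged 0.26 in CD4SP and -0.08 in CD8SP. The gene mean of Nr4a3 in CD4SP minus DP, 1.60, is thus under the 3.76 of its most responsive probe set. Which probe sets read the main transcripts is not known from the files.

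**Figure D3:**
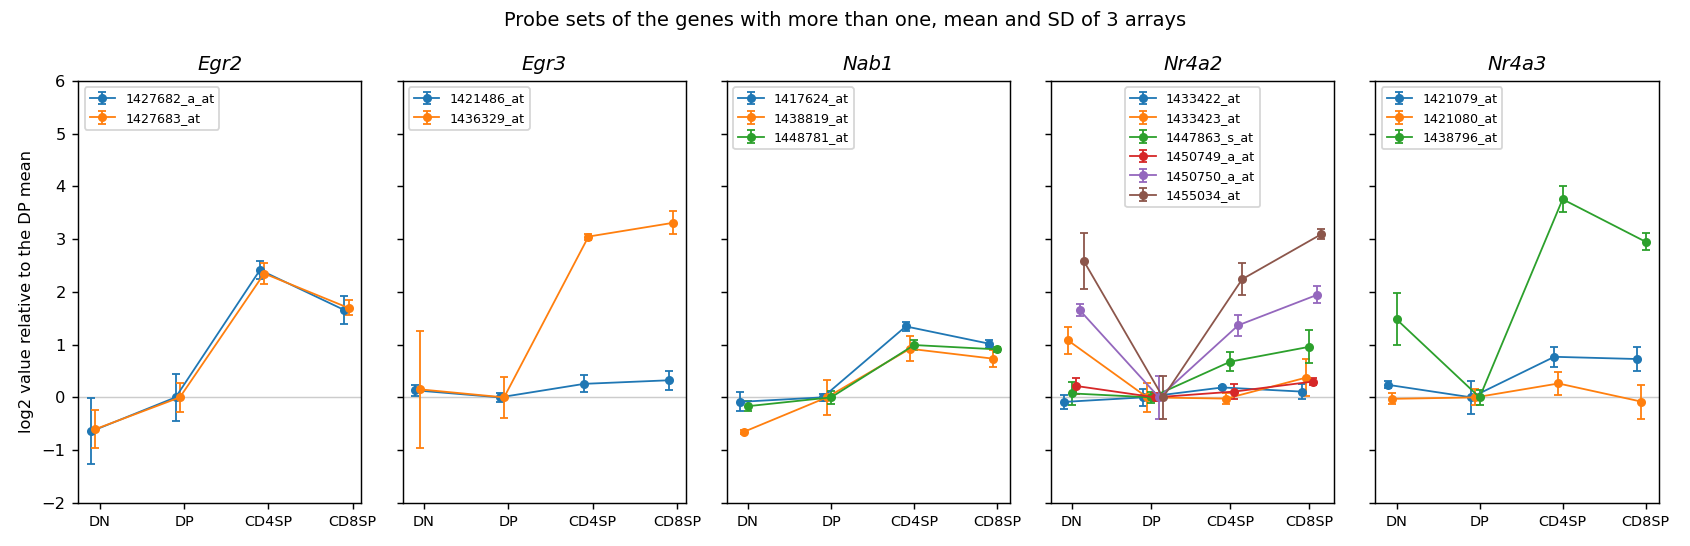
Each panel shows the probe sets of 1 gene as lines through the means of 3 arrays per subset, with SD bars, on the log2 scale relative to the DP mean (vertical axis) over the 4 subsets (horizontal axis). The lines of Egr2 run close together, those of Nab1 part in DN (-0.65 for 1438819_at, against -0.17 and -0.09), and Egr3 1436329_at (3.05 in CD4SP), Nr4a2 1455034_at (2.24) and Nr4a3 1438796_at (3.76) lie well above the other sets of their genes.

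The comparison of DP with DN also set a narrow gate against a broad one. Markers of other lineages were higher in DN than DP: all 6 measured NK and innate lymphoid markers, all 3 measured γδ T cell markers, 5 of 9 myeloid and dendritic markers and 3 of 5 B cell markers were lower in DP. The mean of the NK markers lay between 1.07 and 2.52 on DN arrays, that of the γδ markers between 3.05 and 3.67, that of the myeloid markers between 2.30 and 3.78 and that of the B cell markers between 0.86 and 2.36. DN replicate 1 was the lowest DN array for all 4 lists, as it was for all 8 members. This was not particular to other lineages. The same array was lowest for DN stage markers (2.04, against 2.63 and 2.80) and mature single-positive markers (0.92, against 2.59 and 2.50). For DP stage markers it was the highest DN array (-2.13, against -3.21 and -2.75). The part of these cells in the DN values of Nr4a2 and Nr4a3 was not tested.

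Genes that T cell receptor signals are known to induce, other than the 3 families, were mostly higher in the single-positive subsets too. Of 32 listed genes, 22 were higher in CD4SP than DP and 2 lower, with a median log2 difference of 1.29 against 0.04 over all genes, and 20 were higher in CD8SP than DP and 4 lower, with a median of 0.96 against 0.00. The membrane protein gene Itm2a, a marker of positive selection, lay 3.74 ± 0.10 higher in CD4SP than DP and 1.52 ± 0.10 higher in CD8SP than DP. Tnfrsf9, which encodes the costimulatory receptor 4-1BB, lay 3.45 ± 0.23 higher in CD4SP and 3.24 ± 0.23 higher in CD8SP than DP, and Myc, the growth regulator, 2.19 ± 0.16 and 2.63 ± 0.16. The atypical IκB gene Nfkbid was 2.12 ± 0.12 higher in CD4SP than DP, and the AP-1 gene Fosl2 was 2.59 ± 0.19 higher in CD8SP than DP.

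Some listed genes went the other way. Jun, an AP-1 subunit gene, was lower in CD4SP than DP (-1.44 ± 0.32) and lower in CD8SP than DP (-1.63 ± 0.32), as was the NF-κB inhibitor gene Tnfaip3 (-0.96 ± 0.12 in CD4SP and -1.60 ± 0.12 in CD8SP). Nfkbia, which encodes IκBα, and Gata3, the CD4 lineage factor gene, were lower in CD8SP than DP (-0.33 ± 0.09 and -1.33 ± 0.22). In DP minus DN the list was split, with 7 genes higher, 7 lower and 18 not called. Myc was 3.71 ± 0.16 lower in DP than DN (log2 difference -3.71) and the inhibitory receptor gene Pdcd1 2.82 ± 0.24 lower (-2.82), while the scavenger receptor gene Cd6 was 2.04 ± 0.16 higher and Nfkbia 1.56 ± 0.09 higher.

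Between the single-positive subsets, 10 of the 32 were higher in CD4SP and 1 lower, against 7.78% and 4.91% of all genes. Itm2a was 2.23 ± 0.10 higher, Gata3 1.80 ± 0.22, Irf4, a factor gene that reads receptor signal strength, 1.51 ± 0.21, and the ERK phosphatase gene Dusp5 1.43 ± 0.18. Ikzf2, which encodes Helios, was the 1 that was lower (-0.59 ± 0.14). The mean over the 32 genes lay between 1.37 and 1.48 on the CD4SP arrays and between 0.84 and 1.10 on the CD8SP arrays.

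**Figure D4:**
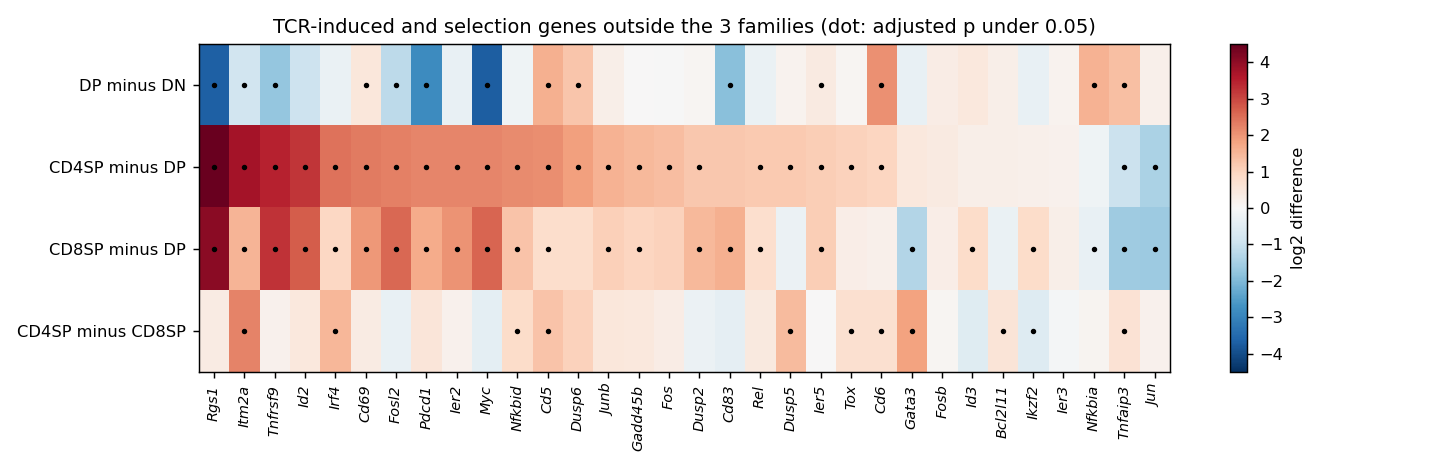
Colours give the log2 difference of 32 genes known to be induced by T cell receptor signals or selection (horizontal axis, ordered by CD4SP minus DP) in 4 comparisons (vertical axis); a dot marks an adjusted p under 0.05. Red cells fill most of the CD4SP minus DP row (22 called higher) and the CD8SP minus DP row (20), and Tnfaip3 and Jun at the right end are blue in both.

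The upstream regulators did not move in 1 direction. Of 18 listed, 15 were measured, and in CD4SP minus DP 4 were higher, 4 lower and 7 not called. The higher ones were Srf (0.53 ± 0.11), which binds the CArG box, its coactivator gene Mrtfa (0.65 ± 0.15), and the calcium-responsive factor genes Nfatc1 (0.36 ± 0.09) and Nfatc2 (0.64 ± 0.10). The lower ones were Hdac7 (-1.77 ± 0.09), which encodes a deacetylase known to bind MEF2 proteins and repress Nr4a1 in thymocytes, Nfatc3 (-1.83 ± 0.10), Mef2a (-1.67 ± 0.10) and Creb1 (-0.55 ± 0.12). In CD8SP minus DP, 4 were higher and 5 lower, with Hdac7 at -1.52 ± 0.09.

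Hdac7, Mef2a and Nfatc3 were highest in DP. In DP minus DN, 7 of 15 were higher and 1, Mef2c, was lower (-1.96 ± 0.56). Of all genes, 17.8% were called higher there and 18.8% lower. Hdac7 was 1.34 ± 0.09 higher, Mef2a 1.46 ± 0.10, Nfatc3 1.57 ± 0.10 and Mef2d 0.71 ± 0.09. Hdac7 thus lay between -1.77 and -1.34 as a group mean in the other 3 subsets.

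Among 14 genes for partners and corepressors, Chd3 moved most. Chd3 encodes a NuRD helicase of the same kind as CHD4, which Nab2 recruits, and was 2.71 ± 0.11 higher in CD4SP than DP, 1.68 ± 0.11 higher in CD8SP than DP and 1.03 ± 0.11 higher in CD4SP than CD8SP, and lower in DP than DN (-1.32 ± 0.11). It was the 1 gene of this list called higher in CD4SP than DP, where 7 were lower, including the deacetylase gene Hdac1 (-0.49 ± 0.08), the NuRD subunit gene Mbd3 (-0.56 ± 0.09) and the histone chaperone gene Rbbp4 (-0.49 ± 0.10). In CD8SP minus DP, 3 were higher and 4 lower. Chd4 itself was slightly lower in CD4SP than DP (-0.25 ± 0.08, adjusted p = 0.0423). The retinoid receptor genes Rxra, Rxrb and Rxrg, whose products pair with Nr4a1 and Nr4a2, had differences between -0.10 and 0.07 from DP in both single-positive subsets.

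Egr4 had positive differences from DP in both single-positive subsets, as the 8 members did, and Wt1 had negative ones. Egr4 was 0.56 ± 0.13 higher in CD8SP than DP (adjusted p = 0.0052) and 0.36 ± 0.13 in CD4SP minus DP (adjusted p = 0.0571). Wt1, which encodes a zinc finger factor that binds a similar motif, was lower in CD8SP than DP (-0.85 ± 0.28, adjusted p = 0.0311) and had -0.31 ± 0.28 in CD4SP minus DP. Neither had a value in CD4SP minus DP as large as that of any of the 8 members.

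Immediate early genes also respond to tissue dissociation and sorting, so 15 genes known for that or for heat shock were read beside the members, 4 of which (Fos, Jun, Junb and Ier2) are also in the list of induced genes. In CD4SP minus DP, 5 were higher (Ier2 by 2.21 ± 0.16, Junb by 1.58 ± 0.22, Fos by 1.38 ± 0.41, Dusp1 by 1.01 ± 0.11 and Zfp36 by 0.58 ± 0.14) and Jun and Btg2 were lower. In CD8SP minus DP, 2 were higher (Ier2 and Junb) and 3 lower (Jun, Btg2 and Dusp1). The mean over the 15 genes lay between -0.00 and 0.58 in CD4SP, -0.03 and 0.22 in CD8SP and -0.11 and 0.14 in DP, so that the groups overlapped. In each group, replicate 1 had the highest mean (0.13 in DN, 0.14 in DP, 0.58 in CD4SP, 0.22 in CD8SP). CD4SP replicate 1 also had the highest CD4SP values of Egr1, Egr3, Nab1, Nab2, Nr4a1 and Nr4a2. DN replicate 1, by contrast, was the lowest DN array for all 8 members. The part of handling in the members' values was not tested.

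The members were compared with each other over the 12 arrays, which are 3 arrays from each of 4 groups, so that a correlation mainly reflects how alike the 4 group means are. Among 28 pairs, Pearson's r was highest for Nab1 with Nab2 (0.99) and lowest for Egr1 with Nr4a2 (0.21). Egr1 and Egr2 had r = 0.98, Nr4a1 and Nr4a3 0.94, and Nr4a2 had between 0.21 and 0.70 with the other members.

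Outside the members, the genes with the most similar pattern were sought among 3580 genes whose group means span at least 1 on the log2 scale. Those nearest to Egr1 were Foxp1 (r = 0.99), Itgb2 and Tnik, and those nearest to Egr2 were Icos (0.99), Cept1 and Trim21. Egr3 was followed most closely by Tmsb10 (0.99), Cnn2 and Oas3, Nab1 by Cd69 (0.99), Treml2 and Ppp1r18, and Nab2 by Oas1b (0.99), Prmt2 and Parp3. The nearest genes to Nr4a1 were Gsap (0.98), Gpr174 and Dcaf11, to Nr4a2 Ahnak (0.97), Gbp3 and T2, and to Nr4a3 Rin3 (0.99), Bach2 and Izumo1r. Cd69, an activation marker of selected thymocytes, averaged -0.50 in DN, 2.32 in CD4SP and 1.94 in CD8SP, and Icos, a costimulatory receptor gene, -0.52, 3.30 and 2.49.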

How the data were processed

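Total RNA of 12 sorted thymocyte samples was hybridised to Affymetrix arrays, per the labels. The table that the authors deposited holds log values, taken as log2 because no source used here gives the base. Per the submitters' processing notes MAS5 was among the tools, with neither version nor role stated. As the deposited values show, the mean of the 3 DP arrays has been subtracted from each of 45101 probe sets (largest absolute DP mean 1.27e-06), so levels and signal over background are lost, no dim probe set could be filtered out and no depth can be given; the number of arrays limits the precision. DN replicate 1 carries 3 decimals only.

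Control probe sets (64) were left out. Probe sets with several symbols (932) or not named in the platform annotation (9211) were not used, and 0 symbols changed when checked against RefSeq. The mean of the probe sets of each of 18193 genes was fitted with limma 3.58.1 in R 4.3.3 (lmFit on 4 group means of all 12 arrays, contrasts.fit, eBayes without trend). P-values are two-sided, adjusted by Benjamini-Hochberg within each of 6 comparisons over all genes, and called under 0.05. The fit was tested on simulated data. Same-numbered arrays had residual correlations of 0.11 to 0.16 for number 1, -0.03 to 0.09 for number 2 and 0.02 to 0.14 for number 3. Arrays with different numbers had -0.16 to 0.08, a range that overlaps those of numbers 2 and 3 but not that of number 1. The labels do not say what the numbers stand for, so they were not taken as pairing the samples in the main fit. Calls that change with a replicate block are given at the end.

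The members, the 17 gene and marker lists and the tests were chosen with earlier results of these data known. Each list count is to be read beside the share of all genes called in that comparison, given with the members' counts. All members are named, with up to 4 genes of a list with the lowest adjusted p in a comparison, called genes that went against their list, and the 3 genes most like each member; members of counts of 5 or fewer, markers and other list genes were named after their values were seen. Alternatives covered the variance model, the arrays in the fit, array weights, batch and replicate terms, the probe set rule, the normalization and each array left out.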

Additional observations from a re-analysis of the deposited data

Results flagged for a closer look

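The differences from DP were unequal in the single-positive subsets for 2 of the 8 genes, by the test of the difference itself (limma, CD4SP minus CD8SP). For Nr4a1 the difference from DP was larger in CD4SP than in CD8SP by 1.3771 on the log2 scale (3.11 against 1.73, adjusted p = 0.00912, each CD4SP array above each CD8SP array). For Nr4a2 it was smaller in CD4SP, with a value of -0.3706 (0.76 against 1.13, adjusted p = 0.0348, each CD4SP array below each CD8SP array), and this call was lost in 12 of 25 other settings. No probe set of Nr4a2 was called in this comparison when fitted singly. Groups of 3 arrays were not searched for single outlying arrays.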

How the results depend on the processing

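The counts of called members in CD4SP minus DP (6 to 8), CD4SP minus DN (6 to 8) and CD8SP minus DN (5 to 7) stayed within 1.5 times the reported ones in all 25 settings. Shares of all genes called were counted in the main fit only. In CD4SP minus CD8SP, where 2 were called, 6 were called with array weights, 4 without both low-weight arrays, 1 without probe sets suffixed _s_at or _x_at, 0 after quantile normalization, and 1 to 4 when arrays were left out in turn. In CD8SP minus DP quantile normalization called 5 in place of 8. In DP minus DN, 2 in place of 4 were called with only the least variable probe set of each gene and 1 after quantile normalization. Quantile normalization forces 1 distribution on arrays whose deposited values have an SD over probe sets of 0.70 to 0.86 in DN, CD4SP and CD8SP, against 0.22 to 0.23 in DP, because DP was set to 0. Probe sets fitted singly turned the sign for Nr4a2 in CD4SP minus CD8SP (0.0784, 1433422_at), CD4SP minus DN (0.60, 1447863_s_at), CD4SP minus DP (-0.0232, 1433423_at), CD8SP minus DN (-0.71, 1433423_at) and DP minus DN (0.0863, 1433422_at), and for Nr4a3, all with 1421080_at, in CD8SP minus DN (-0.0531), CD8SP minus DP (-0.0812) and DP minus DN (0.0281); the cause was not tested. Of the other values of single members, 1200 kept their direction and side of the threshold, 54 lost a call and 34 gained one. With the replicate block, 5 members were called in DP minus DN (Egr2 joined, adjusted p = 0.0271), and in CD4SP minus CD8SP Egr2 joined (0.0362) and Nr4a2 left (0.05); 11 of 12 arrays had residuals that correlated best with an array of their own number. Depth and signal over background cannot be judged from these values.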
